A study of Mus musculus with 3 samples.

Results

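MHC class II molecules present peptides to CD4+ T cells, and 7 genes of this pathway were followed by symbol in single cells sorted from mouse thymus, out of 30406 gene identifiers listed for all 3 libraries. The 7 genes were Cd74, the invariant chain that escorts class II molecules and fills their groove, H2-Aa and H2-Ab1, the alpha and beta chains of I-A, H2-Eb1, the beta chain of I-E, H2-DMa and H2-DMb1, the chains of the DM molecule that exchanges the invariant chain fragment for peptide, and Ciita, the transactivator that switches the pathway on. They were matched by symbol. Each was counted as unique molecular identifiers (UMIs, 1 per captured transcript) in cells that had more than 200 but fewer than 6000 genes, and less than 10% of UMIs from mitochondrial genes.

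In mice, class II molecules are made by B cells, dendritic cells, macrophages and thymic epithelium, and mouse T cells are known as cells that make little or none. CIITA binds no DNA itself, and acts through factors that sit on a conserved group of promoter elements called the W, X and Y boxes, of which the Y box is bound by NF-Y and the X box by the RFX complex. The strain background matters for I-E, since C57BL/6 mice make no functional I-E alpha chain, so that H2-Eb1 transcripts there have no partner, whereas BALB/c mice make both chains.

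The study sorted TCRβ+CD1d-tetramer+CD24-NK1.1- thymocytes, a gate for invariant natural killer T cells before they carry NK1.1, after depleting CD8+ cells with beads. The first library came from C57BL/6 mice of 7 weeks with no transplant. The other 2 came from lethally irradiated F1 mice (C57BL/6 crossed with BALB/c) of 16 weeks, 9 weeks after transplantation (BMT) of T cell-depleted C57BL/6 bone marrow, either alone (BM only, without graft-versus-host disease) or with C57BL/6 splenic cells (BM + Spl, with graft-versus-host disease). Every library pooled several mice, and each group had 1 library, so differences between groups have no replicate check and no test was run. Antigen-presenting cells are not what the gate was set for, and those found here are cells that came through it. Cells of the F1 hosts also carry BALB/c class II alleles, and whether their reads were counted as well as C57BL/6 reads was not tested.

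Of 4613, 5986 and 5573 barcodes in the libraries (C57BL/6, then BM only, then BM + Spl), 4434, 5970 and 5557 passed. The median UMIs per passing cell were 12086, 4740 and 6495. The C57BL/6 library was counted with another version of Cell Ranger and against another gene list, so that strain, age, transplant and counting cannot be told apart between it and the BMT libraries. No barcode was shared between it and either BMT library, and 43 barcodes were found in both BMT libraries. Levels are UMIs of a gene per 1000000 UMIs (CPM), summed over all cells of a class, and intervals are 95% intervals for counting error only.

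Passing cells were sorted into classes by marker UMIs. Cells without a Cd3e UMI were called Siglech+ or Cd79a+ with at least 2 UMIs of that gene, and the remaining ones Lyz2+ or Itgax+ with at least 2 UMIs of these genes together. Siglech is a marker of plasmacytoid dendritic cells, and the BM only and BM + Spl libraries had 152 and 317 Siglech+ cells. In these cells the summed list of 9 further markers of that type, Bst2, Cox6a2 and Klk1 among them, was at 14800 and 19579 CPM. In Cd79a+ cells it was at 3525 and 4489 CPM and in Cd3e+ cells at 246 and 385 CPM. The number of markers detected does not set a class apart, since 1 UMI in the whole class is enough and Cd3e+ cells held all 9 too. Cd79a encodes a chain of the B cell receptor, and Ms4a1 was detected in 95.8% and 91.3% of the 72 and 46 Cd79a+ cells. Their summed list of 7 further B cell markers was at 5077 and 3897 CPM, against 461 and 540 CPM in Siglech+ cells. The 46 and 34 Lyz2+ or Itgax+ cells may be of more than 1 kind. Their conventional dendritic cell list (Xcr1 at 0) was at 1551 and 1735 CPM, against 1028 and 541 CPM in Siglech+ cells. Their macrophage list was at 824 and 711 CPM, below the 1999 and 2809 CPM of Cd79a+ cells. Only 2 cells of either library had 3 or more C1q UMIs. Their summed T cell list was at 338 and 357 CPM, where Siglech+ cells had 47.5 and 50.8 CPM and Cd79a+ cells 412 and 413 CPM. Cd3e+ cells, with at least 1 UMI of this T cell receptor chain and too few marker UMIs for the other classes, numbered 4359, 5356 and 4879. They may still hold 1 UMI of such a marker. Cells that met the rule of an antigen-presenting class and had a Cd3e UMI were set aside as mixed (2, 42 and 111). The 71, 302 and 170 cells that met no rule are called cells without a marker, although they may hold 1 UMI of a class marker other than Cd3e. The C57BL/6 library had 2 Siglech+ cells and no cell of the other antigen-presenting classes, so that it enters below mainly through its Cd3e+ cells.

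The genes for I-A, I-E and DM lie close together on mouse chromosome 17, apart from Ciita and Cd74. In GRCm38, H2-DMa spans chr17:34119541-34139101 on the plus strand, H2-DMb1 chr17:34153072-34160230 (plus), H2-Ab1 chr17:34257689-34269419 (plus), H2-Aa chr17:34282744-34287823 (minus) and H2-Eb1 chr17:34305867-34316674 (plus). Promoters from RefSeq (GRCm38.p6, 250 bases before to 50 after a start) were at hand for 4 of the 7 genes, and H2-DMa had 2 starts. The letters GATTGG, the core of the Y box, were searched on both strands, and 4 of these 5 promoters held them, against 16.1% of 32851 promoters. In the sequences below, GATTGG or its reverse complement is in capitals. The 150 bases before the start, a part of the window searched, are shown 5′ to 3′ on the gene's strand. They cover chr17:34287824-34287973 (minus) for H2-Aa, chr17:34305717-34305866 (plus) for H2-Eb1, chr17:34153041-34153190 (plus) for H2-DMb1 and chr17:34122682-34122831 (plus) for the first start of H2-DMa, which held no match.
H2-Aa: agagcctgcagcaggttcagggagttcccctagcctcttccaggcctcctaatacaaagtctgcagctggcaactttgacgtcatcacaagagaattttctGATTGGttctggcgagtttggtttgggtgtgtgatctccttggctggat
H2-Eb1: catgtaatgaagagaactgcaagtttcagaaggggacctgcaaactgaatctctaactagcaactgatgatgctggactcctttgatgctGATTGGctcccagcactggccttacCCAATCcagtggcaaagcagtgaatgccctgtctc
H2-DMb1: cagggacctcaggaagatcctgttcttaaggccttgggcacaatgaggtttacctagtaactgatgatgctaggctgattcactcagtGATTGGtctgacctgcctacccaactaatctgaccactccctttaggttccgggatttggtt
H2-DMa first start: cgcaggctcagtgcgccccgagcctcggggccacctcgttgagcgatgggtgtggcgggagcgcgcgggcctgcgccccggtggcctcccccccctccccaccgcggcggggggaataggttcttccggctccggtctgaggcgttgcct

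Counted from the start, with the base before it as -1, the Y box core began at -49 in H2-Aa, at -62 in H2-DMb1 and at -60 in H2-Eb1, which held another on the opposite strand at -35. The only match for H2-DMa was at -199 from its second start. The X box letters CCNAGNNAC, found in 17.3% of all promoters, were at -180 in H2-Aa, at -98 and, on the opposite strand after the start, at 2 and 40 in H2-DMb1, and in neither H2-Eb1 nor H2-DMa. H2-Oa and H2-Ob, which encode the DO molecule that restrains DM in B cells, held both, with the Y box core at -44 and -58 and the X box at -80 and -91. A match of letters is a description of the window and not a site of binding, and the lack of a match does not show that a box is absent. The printed H2-Eb1 sequence holds actagcaac, which differs from the X box letters in its first letter only.

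The class II genes were spread very unevenly over the cells. In the BMT libraries, cells of the antigen-presenting classes were far fewer than Cd3e+ cells but held most of the UMIs of the 7 genes. Cd3e+ cells, 89.7% and 87.8% of cells in the BM only and BM + Spl libraries, held 13.1% and 17.3% of these UMIs. Siglech+ cells, 2.55% and 5.70% of cells, held 25.2% and 37.7%. Cd79a+ cells held 31.7% and 15.1%, and mixed cells 9.46% and 17.4%. In the C57BL/6 library, with nearly no antigen-presenting cells, 72.0% of the UMIs were in Cd3e+ cells, 2145 of these 3057 UMIs from H2-DMa. Cd3e+ cells there held only 11.9% of the H2-Aa, 24.4% of the H2-Ab1 and 26.5% of the H2-Eb1 UMIs. The 2 mixed cells held 37.6% of the H2-Aa UMIs of that library, and 1 cell without a marker held 42.3%. H2-DMa stood apart from the other genes in the BMT libraries, with 94.3%, 49.0% and 51.7% of its UMIs in Cd3e+ cells (C57BL/6, then BM only, then BM + Spl), against 56.1%, 13.7% and 19.2% for Cd74.

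**Figure D1:**
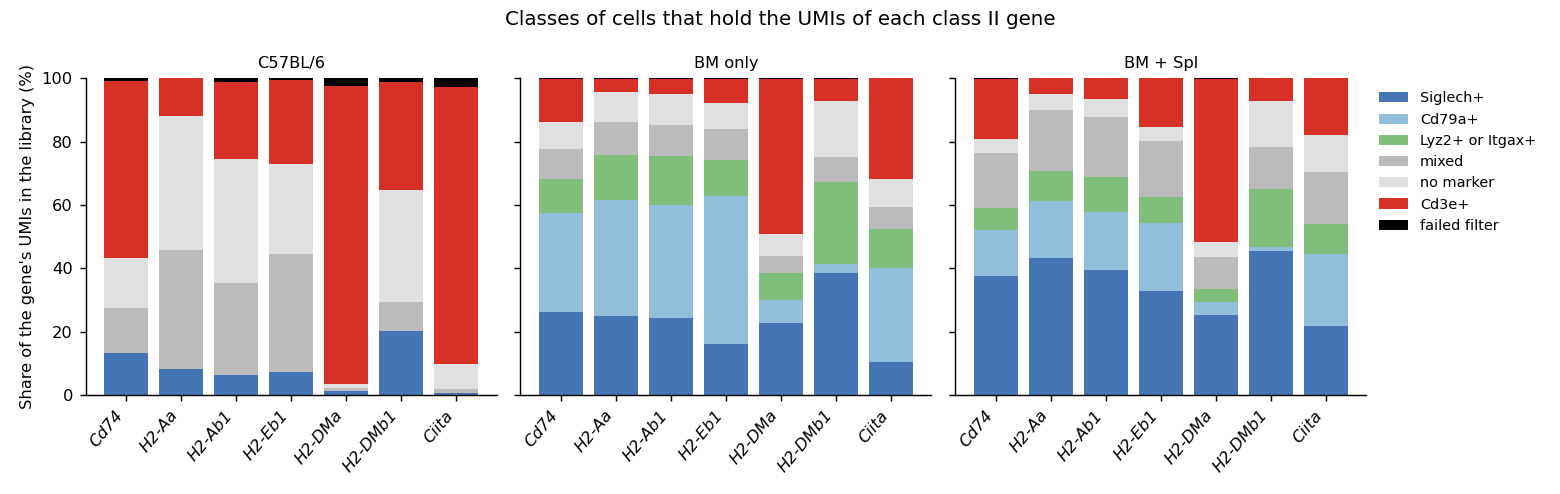
Share of each gene's UMIs in a library that lay in each class of cells (percent, stacked bars from 0 to 100), with 1 bar per gene and 1 panel per library. Cells that failed the filter are shown in black. Cd3e+ cells hold 13.7% and 19.2% of the Cd74 UMIs of the BM only and BM + Spl libraries, but 49.0% and 51.7% of the H2-DMa UMIs.

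Cd74, the invariant chain, was at 9875 CPM (9678 to 10075) in Siglech+ cells of the BM only library and at 11742 CPM (11594 to 11890) in those of the BM + Spl library. Cd79a+ cells were at 21043 and 23591 CPM, and Lyz2+ or Itgax+ cells at 9704 and 12772 CPM. Cd79a+ cells thus had the highest Cd74 in both libraries, and the Siglech+ and Lyz2+ or Itgax+ classes of the BM only library did not differ beyond counting error. At least 1 Cd74 UMI was in 98.0% and 99.1% of Siglech+ cells and in every Cd79a+ cell, against 80.4% and 82.4% of Lyz2+ or Itgax+ cells and 19.2% and 40.2% of Cd3e+ cells. The median UMIs per cell were 6046 and 6488 in Siglech+, 6134 and 7828 in Cd79a+, 8951 and 8666 in Lyz2+ or Itgax+ and 4733 and 6416 in Cd3e+ cells. Thinned to 2000 UMIs per cell, which left out 6 and 10 Siglech+ and 355 and 171 Cd3e+ cells, the shares were 97.9% and 99.7% in Siglech+ cells and 12.5% and 26.5% in Cd3e+ cells.

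The peptide-binding chains were highest in Cd79a+ cells too. H2-Aa, the I-A alpha chain, was at 1852 and 2704 CPM in Siglech+ cells of the BM only and BM + Spl libraries, at 2575 and 3596 CPM in Lyz2+ or Itgax+ cells and at 4843 and 5950 CPM in Cd79a+ cells. Its partner H2-Ab1 was at 1029 and 1501 CPM, 1602 and 2563 CPM, and 2724 and 3683 CPM in these classes. H2-Eb1, the I-E beta chain, was at 846 and 1446 CPM in Siglech+, 1497 and 2233 CPM in Lyz2+ or Itgax+ and 4450 and 5029 CPM in Cd79a+ cells. The gap between Cd79a+ and Siglech+ cells was wider for H2-Eb1, at 5.26-fold and 3.48-fold, than for the 7 genes summed, at 2.26-fold and 2.12-fold.

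The DM genes ran the other way. H2-DMa was lower in Cd79a+ cells, at 413 and 449 CPM, than in Siglech+ cells, at 727 and 555 CPM, a ratio of 0.569 and 0.809. H2-DMb1 was at 507 and 406 CPM in Siglech+ cells, at 836 and 977 CPM in Lyz2+ or Itgax+ cells and at only 72.3 and 61.2 CPM in Cd79a+ cells, 0.143 and 0.151 of the Siglech+ level. Its close paralog H2-DMb2, which lies next to it and encodes another DM beta chain, showed the opposite split, with 591 and 642 CPM in Cd79a+ cells against 46.5 and 84.2 CPM in Siglech+ cells, 12.7-fold and 7.63-fold higher. The paralogs are near-identical in stretches, so reads may have been divided between them or dropped, and both values are uncertain. H2-Ob showed a B cell pattern as well, with 510 and 530 CPM in Cd79a+ cells and 7.23 and 10.6 CPM in Siglech+ cells. Ciita was counted sparsely, at 74.2 and 117 CPM (40 and 46 UMIs) in Cd79a+ cells, 43.2 and 55.6 CPM in Lyz2+ or Itgax+ cells and 14.5 and 21.3 CPM in Siglech+ cells, in the same order of classes as Cd74 from highest to lowest in the BM + Spl library.

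**Figure D2:**
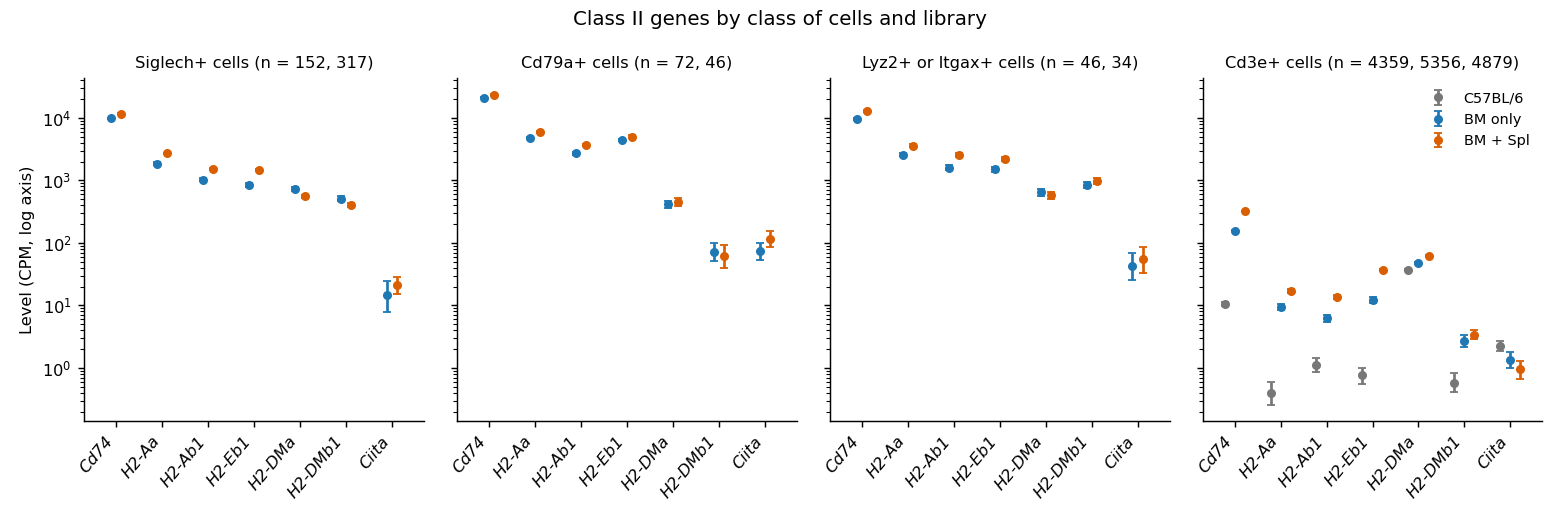
CPM of each class II gene (log axis) in each class of cells of the BMT libraries and in Cd3e+ cells of all 3 libraries, points with 95% counting intervals. Cd79a+ cells lie highest for Cd74, H2-Aa, H2-Ab1, H2-Eb1 and Ciita, while H2-DMb1 reaches 977 CPM in Lyz2+ or Itgax+ and only 61.2 CPM in Cd79a+ cells of the BM + Spl library.

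Single cells of these classes differed in how evenly they held the genes. At least 5 of the 7 genes were detected in 67.8% of Siglech+ cells of the BM only and 88.0% of the BM + Spl library, and in 87.5% and 89.1% of Cd79a+ cells. In Lyz2+ or Itgax+ cells the shares were 41.3% and 44.1%, although these cells were deeper than those of both other classes. The summed level per cell had a median of 14016 CPM (quartiles 8153 and 20593) in Siglech+ cells of the BM only and 18385 CPM (12021 and 23786) of the BM + Spl library. Its quartiles in Lyz2+ or Itgax+ cells, 588 and 17001 CPM in the BM only and 579 and 44734 CPM in the BM + Spl library, lay much farther apart. In both libraries this class held cells with little class II beside cells that exceeded the median of Cd79a+ cells. Its highest cells were at 105715 and 81444 CPM, against Cd79a+ medians of 35688 and 40963 CPM. Cells of the class with Lyz2 and those with Itgax alone had sums within counting error of each other in the BM only library, at 16783 and 17056 CPM, and of 24287 and 20573 CPM in the BM + Spl library.

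The BM + Spl library was then set against the BM only library within each class, to see whether antigen-presenting cells carried other amounts of class II with splenic cells in the graft. In Siglech+ cells, I-A and I-E chains were higher and H2-DMa and H2-DMb1 lower in the BM + Spl library. H2-DMb2, whose reads may be divided with H2-DMb1, was higher, with a log2 ratio of 0.86 (0.38 to 1.36) on 45 and 174 UMIs. The log2 ratio was 0.55 (0.47 to 0.62) for H2-Aa, 0.55 (0.44 to 0.65) for H2-Ab1 and 0.77 (0.66 to 0.89) for H2-Eb1. Cd74 differed less, by 0.25 (0.22 to 0.28). For H2-DMa and H2-DMb1 it was -0.39 (-0.53 to -0.25) and -0.32 (-0.48 to -0.16), and for Ciita, with 14 and 44 UMIs, 0.56 (-0.34 to 1.54). Past 1.5-fold, 1 of the 7 genes was higher (H2-Eb1) and 0 were lower, where 7.84% and 10.7% of the 8562 genes tested in these cells were higher or lower. So 1 gene in 7 does not set the class II genes apart from this background, and their median log2 ratio of 0.55 stood beside -0.060 for all genes. The Siglech+ cells differed between the libraries in their marker genes too: the summed plasmacytoid dendritic cell list was at 14800 and 19579 CPM, and its part in these differences was not tested.

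Cd79a+ cells showed smaller differences, with Cd74 and the I-A and I-E chains again higher in the BM + Spl library. The log2 ratio of BM + Spl over BM only was 0.16 for Cd74, 0.30 for H2-Aa, 0.44 for H2-Ab1 and 0.18 for H2-Eb1, with 0.12 (-0.18 to 0.41) for H2-DMa and -0.24 (-1.04 to 0.53) for H2-DMb1. Only Ciita, at 0.66 (0.018 to 1.31), was past 1.5-fold, against 12.5% of 4906 genes higher and 12.7% lower. The marker lists of Cd79a+ cells moved as well, with the B cell list at 5077 CPM in the BM only and 3897 CPM in the BM + Spl library, the plasmacytoid dendritic cell list at 3525 and 4489 CPM and the monocyte list, all of it Ly6c2, at 1176 and 3477 CPM, and their part was not tested. In Lyz2+ or Itgax+ cells the ratio was 0.40 for Cd74, 0.48 for H2-Aa, 0.68 for H2-Ab1 and 0.58 for H2-Eb1. H2-DMa was at -0.18 (-0.45 to 0.098) and H2-DMb1 at 0.22 there. Again 1 of 7 was past 1.5-fold, H2-Ab1, against 11.3% of 4891 genes higher and 16.6% lower. The plasmacytoid dendritic cell list of these cells was at 1215 CPM in the BM only and 729 CPM in the BM + Spl library, and its part was not tested. The sum of the 7 genes was higher in the BM + Spl library in all 3 classes, by log2 0.31 in Siglech+, 0.21 in Cd79a+ and 0.43 in Lyz2+ or Itgax+ cells. With 46 and 34 cells, and quartiles as far apart as given above, the last value moved with the rule for the class: it was 0.23 when 1 marker UMI was enough to enter the class and 0.77 when 3 were needed. Placing the mixed cells in the antigen-presenting classes brought the sums to 0.12 in Siglech+, 0.10 in Cd79a+ and 0.26 in Lyz2+ or Itgax+ cells.

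**Figure D3:**
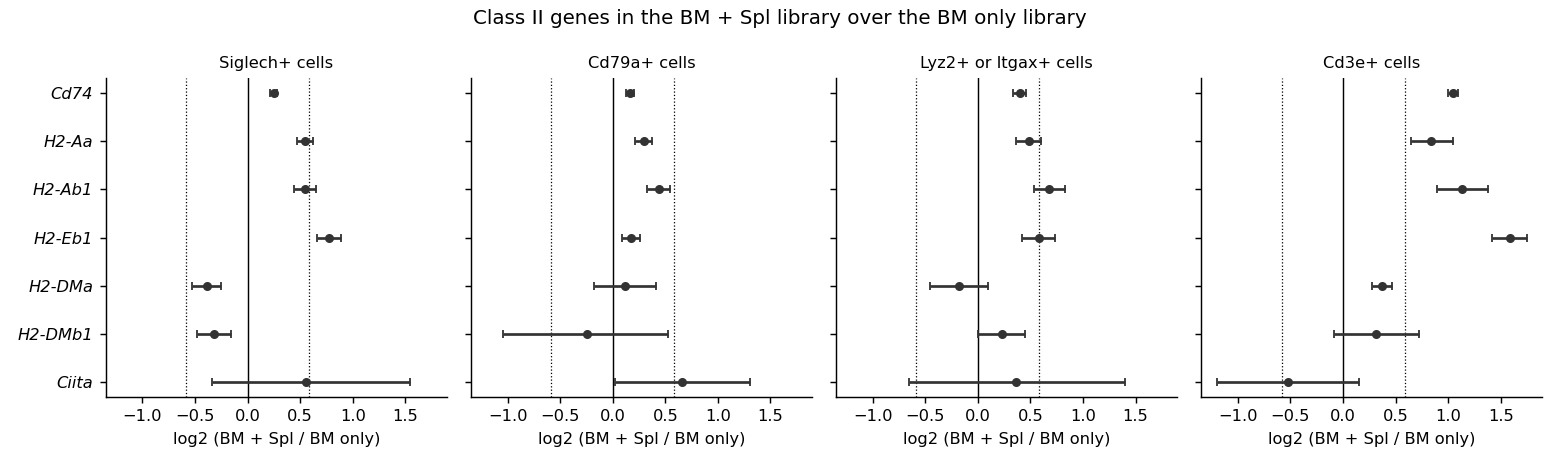
Log2 ratio of CPM, BM + Spl over BM only, for each class II gene in each class of cells, with 95% counting intervals and dotted lines at 1.5-fold. In Siglech+ cells H2-Eb1 lies highest at 0.77 and H2-DMa lowest at -0.39, and in Cd3e+ cells H2-Eb1 reaches 1.58.

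Among 26 further genes of the pathway with a value, 22 were tested in Siglech+ cells, and 2 were higher and 1 lower past 1.5-fold, near or under the 7.84% and 10.7% of all genes. The higher ones were H2-DMb2 and Ctsl, and the lower one was Spi1. Ctsl, a protease that cuts the invariant chain in thymic epithelium and in some myeloid cells, was at 934 and 1490 CPM in Siglech+ cells of the BM only and BM + Spl libraries. Cd79a+, Lyz2+ or Itgax+ and Cd3e+ cells of these libraries had at most 43.2 CPM of it. Spi1, a myeloid and B cell transcription factor, was at 154 and 90.5 CPM in Siglech+ cells. Irf8, a transcription factor of plasmacytoid and other dendritic cells, was alike, at 2672 and 2742 CPM.

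In Cd79a+ cells 6 of 21 pathway genes were higher, against 12.5% of all genes, and 1 was lower, against 12.7%. The lower one, Cd80, had 15 and 5 UMIs and a log2 ratio of -1.13 (-2.94 to 0.41). The higher ones included the interferon-related gene Irf1, at 63.0 and 120 CPM, and also Irf8, at 211 and 489 CPM, H2-Oa, at 306 and 497 CPM, Socs1 and March1, whose product removes class II from the surface. In Lyz2+ or Itgax+ cells 1 of 19 was higher (Ctsd), against 11.3% of all genes, and 7 were lower, against 16.6%. The lower ones included Irf8, at 328 and 126 CPM on 129 and 43 UMIs. Also lower were the costimulatory genes Cd86, at 45.8 and 14.6 CPM, and Cd40, at 153 and 87.8 CPM, on 18 and 5 and on 60 and 30 UMIs. Socs1, at -0.72 (-1.99 to 0.45), March1, at -0.999 (-2.23 to 0.13), and Lgmn, at -1.15 (-2.45 to 0.015), were lower with intervals that included 0. Cd83, which keeps class II at the surface, was within 1.5-fold there, at 53.4 and 76.1 CPM.

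Cd3e+ cells held class II UMIs at a much lower level, and here the BMT libraries stood apart from the C57BL/6 library. Cd74 was at 10.6 CPM in the Cd3e+ cells of C57BL/6 mice, 157 CPM in those of the BM only library and 324 CPM in those of the BM + Spl library. H2-Aa was at 0.396, 9.57 and 17.1 CPM and H2-Ab1 at 1.12, 6.22 and 13.6 CPM. H2-Eb1 was at 0.757, 12.3 and 36.8 CPM. For these genes the order of the libraries was the same each time, and none of their counting intervals met. H2-DMa differed far less between libraries, at 36.9, 47.6 and 61.5 CPM, and Ciita ran the other way, at 2.27, 1.36 and 0.946 CPM on 132, 43 and 36 UMIs. H2-DMb1 was at 0.585, 2.75 and 3.42 CPM. The make-up of the Cd3e+ cells differed between libraries: those with a Foxp3 UMI numbered 3, 617 and 693. They held 2767 of the 4976 Cd74 UMIs of Cd3e+ cells in the BM only and 6518 of 12316 in the BM + Spl library. In Cd3e+ cells with Zbtb16 but neither Foxp3 nor Cd8a, Cd74 was at 11.7, 71.6 and 124 CPM.

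Of the 7 genes, 4 were higher past 1.5-fold in Cd3e+ cells of the BM + Spl than of the BM only library and 0 were lower, against 7.32% and 10.8% of 13599 genes. The log2 ratios were 1.04 (0.995 to 1.09) for Cd74, 0.84 (0.64 to 1.04) for H2-Aa, 1.13 (0.89 to 1.38) for H2-Ab1 and 1.58 (1.42 to 1.75) for H2-Eb1. Those of H2-DMa, H2-DMb1 and Ciita were 0.37, 0.31 (-0.088 to 0.72) and -0.52 (-1.20 to 0.15). Their median, 0.84, stood beside -0.0032 for all genes. Antigen-presenting classes together exceeded Cd3e+ cells of the same library 87.0-fold in the BM only and 47.7-fold in the BM + Spl library for the 7 genes summed. By gene the gap was 298-fold and 191-fold for H2-Aa, 82.8-fold and 41.8-fold for Cd74 and only 13.1-fold and 8.82-fold for H2-DMa.

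Droplets take up free RNA from broken cells, and free RNA of a given source brings its genes in that source's ratio, so the genes were set against H2-Aa within each class. These ratios compare classes and are not ratios of level between genes. Cd3e+ cells held 16.4 and 18.9 UMIs of Cd74 per UMI of H2-Aa in the BM only and BM + Spl libraries. In Siglech+ cells there were 5.33 and 4.34, in Cd79a+ cells 4.34 and 3.97 and in Lyz2+ or Itgax+ cells 3.77 and 3.55. The excess in Cd3e+ cells was larger still for H2-DMa, with 4.97 and 3.59 UMIs per UMI of H2-Aa against at most 0.393 and 0.205 in the antigen-presenting classes. H2-Ab1, at 0.650 (0.541 to 0.780) and 0.796 (0.708 to 0.895), lay near the highest of those classes, at 0.622 and 0.713. H2-DMb1, at 0.287 and 0.199, lay within their range. At the highest ratio of any antigen-presenting class, the H2-Aa UMIs found in Cd3e+ cells would bring 32.5% and 23.0% of their Cd74 UMIs, 7.90% and 5.72% of their H2-DMa UMIs and 71.6% and 39.4% of their H2-Eb1 UMIs, but 95.7% and 89.5% of H2-Ab1 and 113% and 136% of H2-DMb1.

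**Figure D4:**
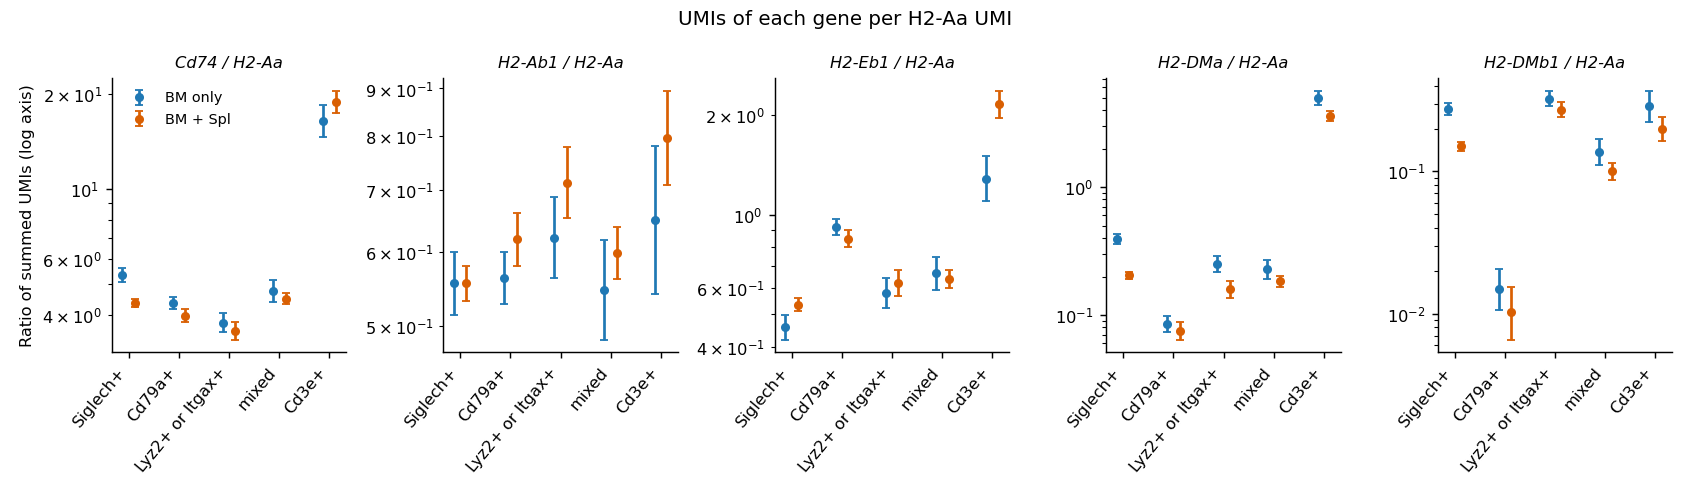
UMIs of a gene per UMI of H2-Aa in each class of cells (log axis), with 95% counting intervals. Cd3e+ cells lie above the antigen-presenting classes for Cd74 (16.4 and 18.9 against at most 5.33) and for H2-DMa (4.97 and 3.59 against at most 0.393) in the BM only and BM + Spl libraries.

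Genes that mark the antigen-presenting classes, but were not used to set them, gave a second measure. Cd3e+ cells of the BM only and BM + Spl libraries held 30 and 74 UMIs of Cox6a2 and Klk1, which plasmacytoid dendritic cells express, 11 and 28 of the B cell genes Igkc and Ms4a1, and 51 and 27 of Cd209a and the C1q genes. With each class's own ratio of Cd74 or H2-Aa to its markers, these would bring 10.6% and 6.16% of the Cd74 UMIs and 42.5% and 29.8% of the H2-Aa UMIs found in Cd3e+ cells. Cells that stuck together enter these sums as free RNA does. The marker UMIs were not spread evenly over cells. In the BM only library, 40 of the 51 UMIs of Cd209a and the C1q genes were Cd209a UMIs of 2 Cd3e+ cells. In the BM + Spl library, 31 Cox6a2 and 11 Klk1 UMIs lay in 3 Cd3e+ cells each. In both libraries the share was smaller for Cd74 than for H2-Aa. That order follows from the Cd74 to H2-Aa ratios given above, since both shares use the same marker UMIs, and it adds nothing to them.

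In the BMT libraries a few Cd3e+ cells held most of the I-A UMIs of this class and a smaller part of its Cd74 UMIs. Cd3e+ cells with 3 or more UMIs of H2-Aa and H2-Ab1 together numbered 4 in the C57BL/6, 16 in the BM only and 76 in the BM + Spl library. In the BMT libraries they held 81.2% and 73.2% of the H2-Aa UMIs of Cd3e+ cells, 44.7% and 30.4% of H2-Eb1, 19.4% and 20.2% of Cd74 and 2.99% and 5.09% of H2-DMa. In the C57BL/6 library they held 26.1% of H2-Aa and 23.1% of H2-Ab1, on 23 and 65 UMIs. Picking cells on the I-A genes raises their I-A share by construction, and no like pick was made on Cd74. All 76 of the BM + Spl library had Cd3g, while Cox6a2 and Klk1 were detected in 3 cells each, Cd79b in 6, Cd209a and Flt3 in 2 each, Igkc and Csf1r in 1 each and Ms4a1 in 0. Cd79b was in 2.83% of the other Cd3e+ cells and Flt3 in 0.125%. Of the 16 of the BM only library, 0 had Cox6a2, Klk1, Igkc or Ms4a1, 3 had Cd79b, 3 Flt3, 2 Cd209a and 1 Csf1r, where 3.37% of the other Cd3e+ cells had Cd79b and 0.169% Flt3. Their median depth was 12172 UMIs in the BM only and 7916 in the BM + Spl library, against 4733 and 6416 in all Cd3e+ cells. No doublets were called, and the part of doublets in these cells was not tested. Without them Cd74 was at 127 and 263 CPM and H2-Aa at 1.81 and 4.68 CPM, so that the difference in Cd74 between the libraries was there without these cells.

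Among Cd3e+ cells, Cd74 was highest in those with Foxp3, the transcription factor of regulatory T cells. Cd3e+ cells were split into Foxp3+ (617 in the BM only and 693 in the BM + Spl library), Cd8a+ (223 and 373), Zbtb16+ (1648 and 1886, with the factor PLZF of invariant natural killer T cells) and others (2868 and 1927). Cd74 was at 725 and 1156 CPM in Foxp3+ cells and at 71.6 and 124 CPM in Zbtb16+ cells, a gap of 10.1-fold and 9.35-fold within the library. Cd8a+ cells came between, at 476 and 336 CPM, and the cells without any of these genes were at 52.3 and 257 CPM. H2-Eb1 was higher in Foxp3+ than in Zbtb16+ cells as well, 9.81-fold and 21.7-fold, at 41.7 and 160 CPM. H2-DMa was alike in both, with ratios of 0.916 and 1.01. Foxp3+ cells were shallower than Zbtb16+ cells, at medians of 4680 and 5920 against 7348 and 9915 UMIs. Markers of other cell types were higher in them too: the B cell list, nearly all of it Ighm, was at 519 and 439 CPM in Foxp3+ and 46.6 and 35.5 CPM in Zbtb16+ cells, and the conventional dendritic cell list at 37.5 and 19.7 against 1.15 and 1.43 CPM. The part of such cells or their RNA in the gap was not tested.

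Thinned to 2000 UMIs per cell, 61.2% (57.1 to 65.2) of Foxp3+ cells of the BM only and 72.5% (69.0 to 75.8) of the BM + Spl library had a Cd74 UMI. In Zbtb16+ cells the shares were 7.65% and 14.9%, in Cd8a+ cells 16.8% and 27.9%, and in the others 4.28% and 21.2%. Unthinned, they were 78.6% and 85.9% in Foxp3+ and 18.0% and 32.7% in Zbtb16+ cells. Thinning left out 32 and 17 Foxp3+ and 41 and 15 Zbtb16+ cells. The Zbtb16+ and other cells of the C57BL/6 library had 1.71% and 0.315%, and it held only 3 Foxp3+ cells. For H2-DMa the thinned shares hardly differed by subset, from 8.06% to 9.83% in the BM only and from 10.5% to 13.9% in the BM + Spl library. Cells with 3 or more Cd74 UMIs made up 319 of 617 Foxp3+ cells (51.7%) and 493 of 693 (71.1%).

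**Figure D5:**
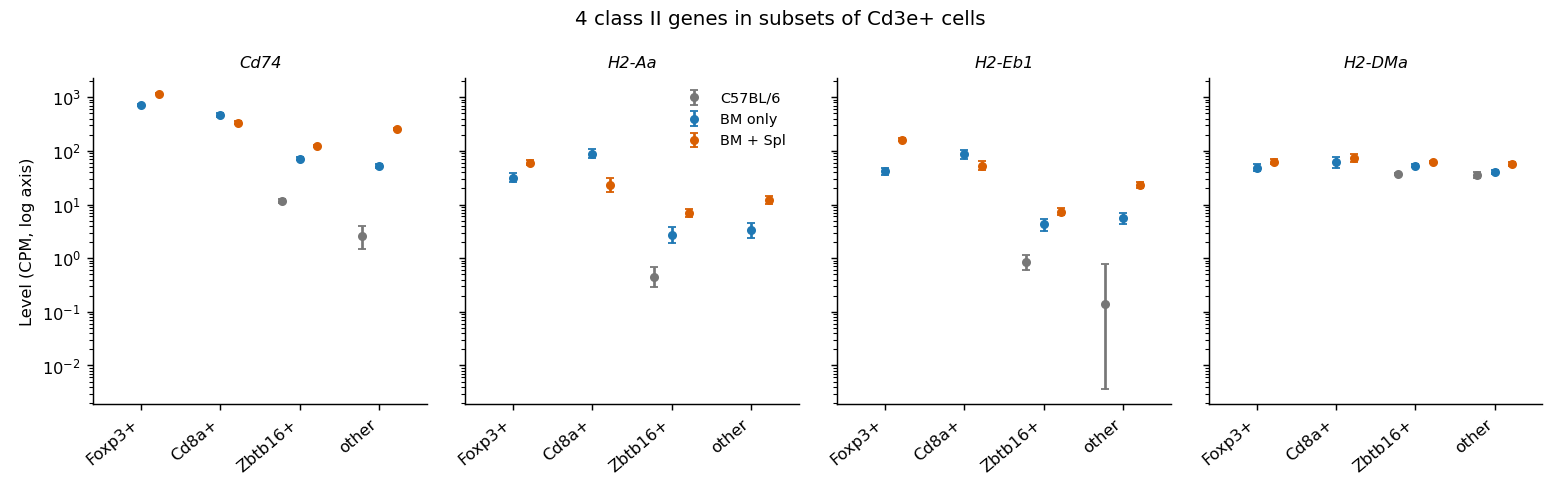
CPM of Cd74, H2-Aa, H2-Eb1 and H2-DMa (log axis) in subsets of Cd3e+ cells of each library, with 95% counting intervals, leaving out groups under 20 cells and genes at 0. Cd74 lies highest in Foxp3+ cells (725 and 1156 CPM in the BM only and BM + Spl libraries), while H2-DMa stays between 34.9 and 73.9 CPM in every subset shown.

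Subset by subset, Cd74 was higher in the BM + Spl library in Foxp3+ (log2 0.67), Zbtb16+ (0.79) and other cells (2.30). The other cells are what the split left over, and their marker lists moved too. Their monocyte list was at 1666 CPM in the BM only and 215 CPM in the BM + Spl library. Their mature dendritic cell list was at 59.1 and 261 CPM, and the part of such shifts was not tested. Of the 7 genes, 4 were higher past 1.5-fold in Foxp3+ cells, against 4.91% of 10640 genes, and 0 were lower, against 8.78%. In Foxp3+ cells 87.6% and 90.9% of the H2-Aa UMIs were in 4 and 27 cells with 3 or more H2-Aa and H2-Ab1 UMIs. Without these cells H2-Aa was at 4.01 and 5.80 CPM, a log2 ratio of 0.53 (-0.40 to 1.53) that was no longer past 1.5-fold. Cd74 was then at 621 and 908 CPM, also no longer past 1.5-fold. H2-Ab1, at 2.41 and 9.35 CPM, and H2-Eb1, at 27.0 and 112 CPM, stayed past it. Ciita was then at 3.21 and 2.43 CPM. With all Foxp3+ cells it was at 3.41 and 3.37 CPM on 13 and 19 UMIs, a log2 ratio of -0.016 (-1.11 to 1.12). In Zbtb16+ cells 4 were higher, against 2.69% of 12142 genes, and Ciita was lower, against 10.8%, on 13 and 12 UMIs and with a log2 ratio of -0.66 (-1.92 to 0.59). In the others 5 of 6 genes tested were higher, against 14.7% of 11916, and 0 lower, against 10.8%. Cd8a+ cells stood apart, with 0 of 5 genes tested higher and 3 lower, against 8.09% and 9.75% of 9060 genes. That direction rested on 1 cell: a Cd8a+ cell of the BM only library held 100 of the 101 H2-Aa UMIs and 332 of the 543 Cd74 UMIs of its subset. Without cells with 3 or more H2-Aa and H2-Ab1 UMIs, Cd74 in Cd8a+ cells was at 187 CPM in the BM only and 264 CPM in the BM + Spl library.

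H2-DMa, the gene that T cells held most evenly, overlaps Brd2, a broadly expressed chromatin reader that spans chr17:34112023-34122634 on the opposite strand. The strand used in counting is not given in the sources used here, and whether reads of the overlap were kept apart was not tested. Both RefSeq starts of H2-DMa lie past the end of the Brd2 span, but the H2-DMa gene span given above begins inside it. Brd2 was at 126 CPM in Cd3e+ cells of the C57BL/6, 119 CPM of the BM only and 96.0 CPM of the BM + Spl library. Other pathway genes had T cell levels of their own, such as H2-Oa, at 20.2 and 24.5 CPM in Cd3e+ cells of the BM only and BM + Spl libraries. Of 26 pathway genes tested in Cd3e+ cells, 3 (Irf8, Cd80 and Cd86) were higher in the BM + Spl library, against 7.32% of all genes, and 2 (Ctsd and March1) were lower, against 10.8%. March1 had 12 and 9 UMIs and a log2 ratio of -0.68 (-2.11 to 0.69). Irf8 was at 23.2 and 35.6 CPM and Cd86 at 3.54 and 6.04 CPM. The myeloid gene Spi1 was near 0 in these cells, at 0.852 and 0.710 CPM.

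Cells that met no class rule included a few with much class II. In the BM only library 25 of 302 such cells, and in the BM + Spl library 23 of 170, held 3 or more UMIs of H2-Aa plus H2-Ab1. These cells held 88.5% and 87.8% of the class's UMIs of the 7 genes, a sum that includes the genes they were picked on. The dendritic cell receptor Flt3 was in 10 and 9 of them, Fscn1 in 5 and 5, Ccr7 in 3 and 4 and the T cell gene Trbc2 in 4 and 4. Bst2 was in 22 and 18, but also in 45.4% and 64.9% of the Cd3e+ cells with fewer than 3 such UMIs. Of the 7 genes, Ciita was higher past 1.5-fold in cells without a marker of the BM + Spl library, at 14.9 and 36.0 CPM, and 0 were lower, against 9.12% and 13% of 7839 genes. Mixed cells held 12848 and 10918 CPM of the 7 genes, between the Siglech+ and Cd3e+ levels, and had medians of 10096 and 12412 UMIs, above those of both. In them 0 of the 7 genes were higher past 1.5-fold in the BM + Spl library and H2-DMb1 was lower, at 240 and 155 CPM, against 15% and 14% of 8135 genes. Siglech was the marker in 26 of 42 and 90 of 111 of them. Their Cd74 to H2-Aa ratios, 4.74 and 4.50, lay near those of the antigen-presenting classes and below the 16.4 and 18.9 of Cd3e+ cells.

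The genes most like the 7 class II genes were sought over 9 groups of cells of the 3 libraries, by the Pearson correlation of log2(CPM + 1) with their sum. These groups share libraries, and 3 of them are Cd3e+ cells, so the values describe a pattern over few points. The 5 genes with the highest correlation were Napsa (0.995), an aspartic protease of the lysosome, Tor3a (0.990), Marcks (0.988), a membrane-bound substrate of protein kinase C, Lat2 (0.985), an adaptor of B and myeloid cell receptors, and Tctex1d2 (0.981). Of the members, H2-Aa (0.999), H2-Ab1 (0.997), H2-Eb1 (0.996) and Cd74 (0.994) had the highest values, which are in part fixed, since each is a term of the sum and Cd74 makes up most of it. H2-DMa (0.959), Ciita (0.914) and H2-DMb1 (0.872) had lower ones, as the T cell level of H2-DMa and the low H2-DMb1 of Cd79a+ cells given above already show.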

How the data were processed

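The authors aligned reads of 3 droplet libraries to the mm10 transcriptome with Cell Ranger (3.0.2 for C57BL/6 and 7.0.0 for both BMT libraries per the file headers, while the paper names another version) and deposited raw UMI counts per gene and cell. Strand and kit end of each library are not given in the sources used here. The paper gives another age for the C57BL/6 mice than the labels, and fewer cells for the BMT libraries than pass its filter here.

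Counts were summed per class, using numpy 2.4.6, pandas 2.3.3 and scipy 1.17.1 under Python 3.11.15. CPM have exact Poisson, shares Clopper-Pearson and ratios conditional binomial intervals of 95%. Genes with at least 20 UMIs in both BMT libraries together were called past 1.5-fold. By construction a Cd3e+ cell holds at most 1 UMI of Siglech, of Cd79a, and of Lyz2 and Itgax together. Free RNA was therefore measured with other markers. The interval script was tested on simulated data. The 7 genes, the pathway list, the classes and the named genes were chosen with earlier results of these data known. Ifi30 is in the gene list of the BMT libraries only and was not used.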

Additional observations from a re-analysis of the deposited data

How the results depend on the processing

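Each of 18 main values was recomputed under its alternatives, 82 in all, of which 43 left it within its counting interval or, for counts of genes, within 1.5 times, 39 moved it and 0 turned its direction. Those with cells of 3 or more H2-Aa plus H2-Ab1 UMIs or shared barcodes left out were chosen after seeing the data. The log2 ratio of the 7 genes, BM + Spl over BM only, moved in Cd3e+ cells from 0.95 to 1.04 with classes set at 1 marker UMI and 1.29 as a mean of each cell's CPM. In Siglech+ cells it moved from 0.31 to 0.12 with mixed cells placed in the class, 0.28 as a mean over cells and 0.37 scaled by the median ratio of all genes. In Cd79a+ cells it moved from 0.21 to 0.10 with mixed cells, 0.17 without cells with Cd3d or Cd3g, 0.073 as a mean over cells and 0.17 scaled by the median. In Lyz2+ or Itgax+ cells it moved from 0.43 to 0.23 at 1 UMI, 0.77 at 3 UMIs, 0.26 with mixed cells and 0.36 as a mean over cells. The log2 ratio of antigen-presenting classes over Cd3e+ cells was 5.57 in the BM + Spl library, with 5.62 at 1 UMI, 5.29 with mixed cells, 5.27 as a mean over cells, 5.71 scaled by the median and 5.91 without Cd3e+ cells of 3 or more H2-Aa plus H2-Ab1 UMIs. In the BM only library it was 6.44, with 6.60, 6.34, 6.59, 6.57 and 6.78 in that order, and in the C57BL/6 library, on 2 antigen-presenting cells, 7.43, with 6.82 at 1 UMI, 7.18 without Cd3d or Cd3g and 6.60 scaled by the median. The percent of Cd3e+ cells with a Cd74 UMI went from 6.86, 19.2 and 40.2 to 1.40, 12.5 and 26.5 on thinning.

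Genes higher and lower past 1.5-fold numbered 301 and 442 in Siglech+ cells, 198 and 163 in Cd79a+ cells and 159 and 218 in Lyz2+ or Itgax+ cells with at least 50 UMIs required, against 671 and 912, 613 and 621, and 553 and 811 with 20. With 10 UMIs they were 1107 and 1194 in Cd79a+ and 1079 and 1524 in Lyz2+ or Itgax+ cells, by construction more genes tested. Of 306 alternatives for single members and subsets, 245 were alike, 55 moved and 6 turned direction. In Cd8a+ cells without those of 3 or more H2-Aa plus H2-Ab1 UMIs, the log2 ratio was 0.59 for the sum (-0.60 with them), 0.50 for Cd74, 3.37 for H2-Aa, 1.93 for H2-Ab1 and 1.504 for H2-Eb1. H2-DMa in Lyz2+ or Itgax+ cells was 0.017 as a mean over cells, and the cause was not tested. No paired analysis was possible because each group had 1 library. Ciita, at 14 to 46 UMIs a class, is limited by depth, and so is every member in the 2 Siglech+ cells of the C57BL/6 library.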

Other observations

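Cd3e+ cells with 3 or more Cd74 UMIs were set against those with none, a split chosen after the values were seen and made on the outcome, so that it is a description of which genes go with Cd74 and no comparison of groups. In the BM only library the genes with the largest log2 ratio included Klrg1 (5.20), a receptor of effector lymphocytes, Tff1 (5.19), the costimulatory receptor Tnfrsf4 (4.43) and Foxp3 (4.34). In the BM + Spl library they included Gm30211 (5.39), Klrg1 (4.21) and Foxp3 (4.12), so that Klrg1 and Foxp3 were among them in both. The cells with 3 or more Cd74 UMIs numbered 506 and 1097 in these libraries and 55 in the C57BL/6 library.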
